A study of Rattus norvegicus with 4 samples.

Results

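The genes described here encode the actin machinery that a phagocyte uses to engulf particles and to crawl. They were chosen by symbol and known role, and not by a threshold on a measured value: 47 genes, of which 44 were matched to at least 1 probe, out of 16506 named rat genes measured. No probe was matched to Was, Dock2 or Elmo1, and these are not analysed here. All samples were NR8383 cells, an established alveolar macrophage line from the lavage of a normal rat lung, of which some cells attach and others float. The series holds 1 group of 4 biological replicates, each on its own one-colour array. The cells, at 20 passages, came from medium with 15% serum, spent 48 h in flasks and were incubated for 4 h in DMEM with 10% fetal bovine serum, a condition the labels also mark ALI without giving its meaning. With 1 group and no control, the data answer which of these genes were detected, at what level, and how far the replicates differed, and no difference between arrays could be tested against replicates of its own.

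A macrophage pushes its membrane forward by polymerising actin. Small GTPases, loaded by exchange factors, switch on WASP and WAVE proteins, and these activate the Arp2/3 complex, which starts a new filament as a branch on an old one. Profilin and thymosins manage the pool of actin monomers, formins and VASP proteins lengthen filaments, capping proteins stop them, and cofilin and coronins take them apart. Crosslinkers bundle the filaments, while talin, vinculin and kindlin tie them to integrins and ERM proteins such as moesin tie them to the membrane.

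Promoter sequences were available for 37 of the 44 measured genes (RefSeq, GRCr8, 250 bases before to 50 after the annotated start). Members without a sequence were not searched, and whether Actb was among them is not reported here. Actin genes are textbook targets of serum response factor, which binds the CArG box. An exact CArG box, whose pattern is the same on both strands, was present in the window of 1 of the 37 genes, Actg1, and in 1.64% of all 33469 promoters in the table. The second motif searched was GAGGAAGT on either strand, a purine-rich box of the kind that PU.1, the myeloid factor encoded by Spi1, binds. It was present in 3 of 37 windows (Rhog, Vav1 and Arpc1b) and in 2.42% of all promoters. The GC box GGGCGG, on either strand, was present in 31 of 37 windows (83.8%) against 33.1% of all promoters, and TATAAA, on either strand, in none of 37 against 14.2%. The table also holds promoters of uncharacterised loci, and a match in these letters is not a binding site. The 150 bases before the start are shown for the cytoplasmic actin gene with the CArG box and for the haematopoietic exchange factor gene with the purine box, with the motif in capitals, at chr10:106120952-106121101 on the minus strand and chr9:2248805-2248954 on the plus strand of GRCr8.
Actg1: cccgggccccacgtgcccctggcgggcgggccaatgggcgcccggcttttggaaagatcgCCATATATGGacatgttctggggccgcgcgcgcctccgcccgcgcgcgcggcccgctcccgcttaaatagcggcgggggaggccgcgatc
Vav1: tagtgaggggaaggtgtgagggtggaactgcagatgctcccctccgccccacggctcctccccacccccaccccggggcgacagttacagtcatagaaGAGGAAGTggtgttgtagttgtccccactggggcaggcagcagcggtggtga
The CArG box of Actg1 began 90 bases before the annotated start and the purine box of Vav1 began 52 bases before it. The 2 genes were both detected on every array, as described with their values below.

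Levels are given as log2 of the processed signal divided by the 75th percentile of signal on the same array, so 0 is the level of that percentile. They are mean ± SD over the 4 arrays unless single arrays are named. Probes differ in how strongly they bind, so the level of 1 gene is not compared with that of another. The 75th percentile was 25.6 to 45.5 times the 95th percentile of negative controls, lowest on replicate 1, and between 50.9% and 58.9% of spots on an array were well above background. The number of arrays limits the precision. The label of the cells was checked against marker genes, with detection defined below: 12 of 12 macrophage markers were detected, among them Cd68 at 7.44 ± 0.17, Csf1r at 1.83 ± 0.39 and Spi1 at 3.78 ± 0.11. Of 18 markers of other cell types 2 were detected, and 11 were well above background on no array, including Epcam, Col3a1, Cd3e and Elane. The detected ones were Pecam1 at 0.19 ± 0.72 and Cdh5 at -0.87 ± 0.14, both used here as endothelial markers. Whether their signal came from other cells was not tested.

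All but 2 of the measured actin genes were detected. A gene was called detected where at least 1 of its probes was well above background on all 4 arrays. Of the 44 members 42 (95.5%) met this, and the same call was met by 53.1% of all named genes. Every measured subunit of the Arp2/3 complex and all of Rac1, Cdc42, Rhoa and Rhog, the small GTPase genes of the set, were detected. The exceptions were the WAVE protein gene Wasf2 and the ezrin gene Ezr, each well above background on some arrays, while 34.4% of all named genes were so on none. The software's less strict flag, positive and significant on all arrays, was met by the same 42 members and by 66.9% of all named genes. All 44 members were above the 95th percentile of negative controls in limma's moderated test at an adjusted p under 0.05, as were 69.3% of all named genes. Wasf2 had a limma adjusted p of 0.0151 and the brighter Ezr probe one of 0.00809.

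**Figure D1:**
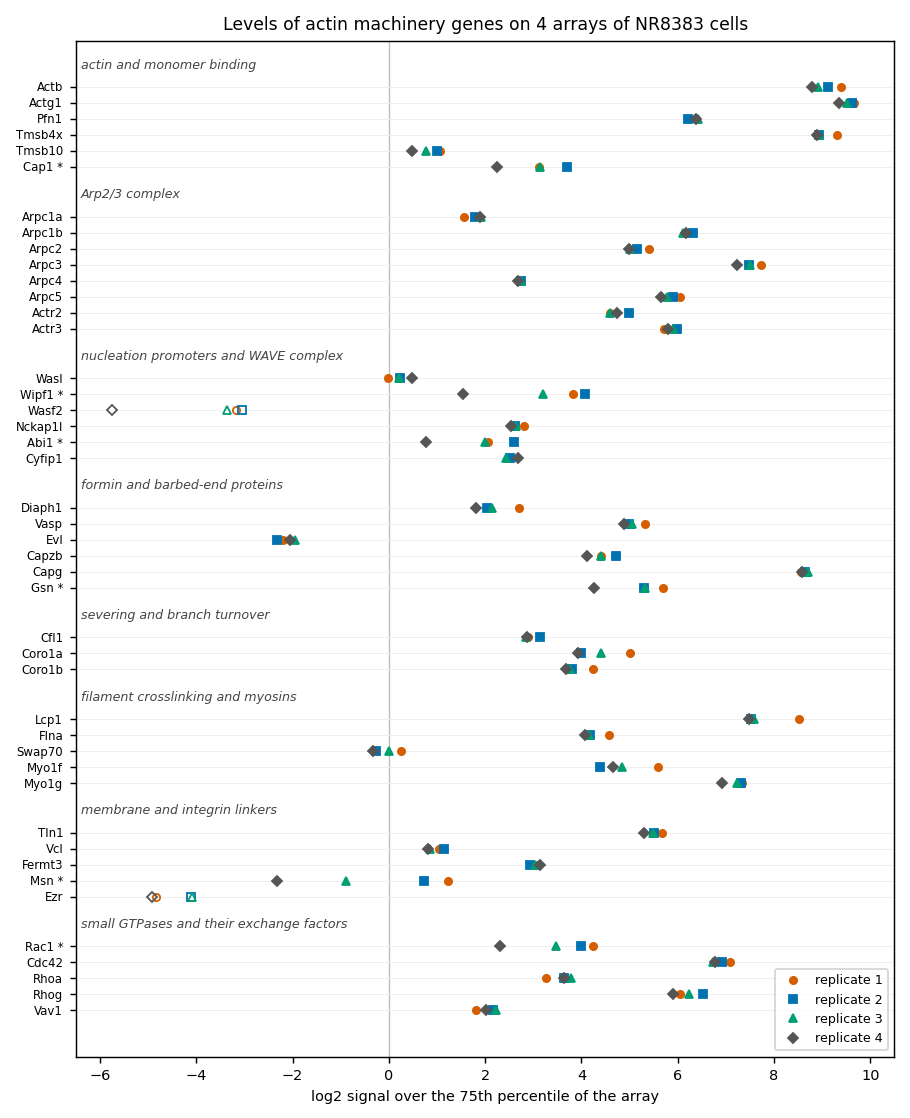
Level of each of the 44 measured genes on the 4 arrays, as log2 signal over the array's 75th percentile, grouped by role, with 1 marker per replicate. Open markers show the 2 genes that were not detected on all arrays (Wasf2 and Ezr), and a star marks the 6 genes whose only spot lay in or beside a dim area of the array, where replicate 4 reads lowest.

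The other genes of the pathway gave a similar picture. Of 81 further actin genes 72 were measured and 61 of them (84.7%) were detected, with 7 well above background on no array. Detected examples were the haematopoietic GTPase gene Rac2 at 5.06 ± 0.35, Rhob at 0.39 ± 0.61 and Rhoc at 4.29 ± 0.18. Among the 11 that were not detected were Arhgap15, Actr3b, Wasf1, Nckap1, Enah, Scin, Cfl2, Pfn2, Cap2 and Tln2. Chosen after their values were seen, all of these named genes but Arhgap15 have a relative among the detected members or, for Wasf1, among the members. Thus Nckap1l, the haematopoietic WAVE complex subunit, was detected at 2.65 ± 0.11 and its relative Nckap1 on no array. Evl was detected at -2.13 ± 0.16 and its relative Enah on no array. Tln1, Cap1, Cfl1, Pfn1 and Actr3 were detected, whereas Cap2 was well above background on no array, Tln2 on 2, and Cfl2, Pfn2 and Actr3b on 3. Other relatives were detected beside the members, among them Arpc5l at 5.20 ± 0.15 and the kindlin gene Fermt2 at -0.33 ± 0.17. These are calls by separate probes and not a comparison of levels.

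Actin genes of muscle, neurons and brush border were mostly not detected. Of 20 such genes 3 (15.0%) were detected, and 10 were well above background on no array, among them the smooth muscle gene Tagln and the brush border gene Vil1. The detected ones were the cardiac actin gene Actc1 at 3.41 ± 0.21, the enteric smooth muscle actin gene Actg2 at -1.36 ± 0.85 and the muscle tropomodulin gene Tmod4 at -2.40 ± 0.56. Acta1 and Acta2 were well above background on 3 arrays each. Actin coding sequences are nearly identical between genes and the probe sequences were not used here, so binding of cytoplasmic actin transcripts to these probes was not tested.

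**Figure D2:**
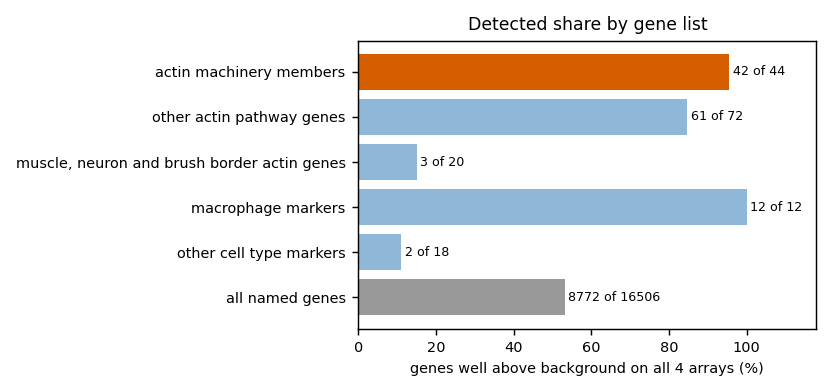
Share of the measured genes of each list that were well above background on all 4 arrays, in percent, with the counts beside the bars. The actin machinery stands at 42 of 44, the further actin pathway genes at 61 of 72, the muscle, neuron and brush border genes at 3 of 20, and all named genes at 8772 of 16506.

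Both cytoplasmic actin genes gave strong signals on every array. Actb read 9.39, 9.12, 8.92 and 8.78 on replicates 1 to 4, from 1 probe printed 10 times. Actg1 read 9.67, 9.63, 9.52 and 9.35, from 2 probes. Replicate 1 lay above the other arrays for Actb. For Actg1 the 2 probes differed: 1 read 9.44 on replicate 1 and 9.55, 9.39 and 9.46 on the others, and the other read 9.90 against 9.71, 9.65 and 9.23. Its difference on replicate 1 turned to -0.08 after quantile scaling. Pfn1, whose product profilin feeds actin monomers to growing ends, lay at 6.35 ± 0.09. Tmsb4x, the major monomer-sequestering thymosin, read 9.30 on replicate 1 and 8.94, 8.92 and 8.90 on the others, so replicate 1 stood apart by more than the range of the other arrays. Its 3 probes did not show this alike: 1 lay 0.50 above its own mean on replicate 1 and the other two 0.16 and 0.19. Tmsb10, a second thymosin, read 1.07, 1.0, 0.78 and 0.49 on 1 of its 3 probes. The other two Tmsb10 probes, each printed 10 times, failed the call on each of the arrays, so its detection rests on a single spot per array.

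The Arp2/3 complex was detected in full, and its subunits agreed closely between arrays. Arpc4 lay at 2.72 ± 0.03, the smallest SD among the detected members. The paralogous subunits Arpc1a and Arpc1b were both detected. Arpc1a read 1.57, 1.78, 1.92 and 1.90, with replicate 1 below the rest on 1 of its 2 probes, and Arpc1b read 6.20, 6.31, 6.11 and 6.17. The SDs of the 8 subunits ran from 0.03 (Arpc4) to 0.20 (Arpc3). Arpc2 lay at 5.14 ± 0.19, Arpc3 at 7.49 ± 0.20, and the actin-related proteins Actr2 and Actr3 at 4.73 ± 0.19 and 5.85 ± 0.12. Replicate 1 lay above the mean of the others for Arpc2, Arpc3 and Arpc5 and below it for Arpc1a, Actr2 and Actr3. These differences were small, from -0.30 for Arpc1a to 0.35 for Arpc2. Actr2, read from a single spot per array, lay within the range of the other arrays on replicate 1. Whether the subunits moved together was not tested. Arpc5 read 6.04, 5.89, 5.78 and 5.66, the mean of a probe at 7.05 ± 0.13 and one at 4.63 ± 0.21. For Arpc2 the direction turned under normexp correction (0.35 became -0.09).

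The measured activators of the complex and their partners among the members were detected except Wasf2. No probe was matched to Was or Wasf3, and Wasf1 was not detected. Wasl was therefore the only detected gene for a WASP or WAVE protein. Wasl, which encodes N-WASP, read -0.02, 0.23, 0.22 and 0.47, with replicate 1 lowest. Wasf2 read -3.18, -3.05, -3.37 and -5.75 and was well above background on replicate 2 alone. These values lie close to background and show only that its signal was low. Of the WAVE complex, Nckap1l (2.65 ± 0.11) and Cyfip1 (2.53 ± 0.11) agreed within a narrow range, and Brk1, from the further pathway list and chosen after its values were seen, lay at 5.76 ± 0.12. Wipf1, which encodes the partner that stabilises WASP, and the WAVE subunit gene Abi1 had far wider spreads, described with the dim area below.

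Genes that act on filament ends and on disassembly were all detected. Diaph1, a formin gene, read 2.70, 2.05, 2.14 and 1.81 on 2 probes that both put replicate 1 highest (0.39 and 0.67 above their means). These probes lay far apart, at -0.76 ± 0.27 and 5.11 ± 0.49, so the level of Diaph1 depends on the probe. Vasp read 5.31, 4.99, 5.05 and 4.89, the mean of probes at 7.57 ± 0.28 and 2.56 ± 0.09. The capping genes Capzb and Capg lay at 4.41 ± 0.24 and 8.62 ± 0.07. Cfl1, which encodes the severing protein cofilin, read 2.89 on replicate 1, 3.14 on replicate 2, and 2.85 and 2.88 on the others, so replicate 2 stood apart. Coro1a, the coronin gene of white blood cells, read 5.01, 4.00, 4.40 and 3.93, and Coro1b lay at 3.87 ± 0.25. Replicate 1 was the highest array for both coronin genes, each read from a single spot per array. The same held for 41.6% of all detected genes with no spot in the dim area described below.

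All 5 genes of crosslinkers and myosins were detected. Lcp1, the gene for the leukocyte bundling protein L-plastin, read 8.53 on replicate 1 and 7.53, 7.59 and 7.49 on the others. Myo1f, a class I myosin gene of white blood cells, read 5.59 on replicate 1 against 4.39, 4.83 and 4.65. Flna, the gene for filamin A, read 4.57 against 4.18, 4.17 and 4.07. Swap70 lay at -0.08 ± 0.27 and Myo1g at 7.19 ± 0.20. The Lcp1 probe was printed 10 times, while each of the others, Myo1f included, was read from a single spot per array. All 5 genes lay above the other arrays on replicate 1, as did 41.6% of all detected genes with no spot in the dim area described below. Under normexp correction with quantile scaling the differences of Flna and Myo1g turned to -0.10 and -0.13, while those of Lcp1 (0.78), Myo1f (1.13) and Swap70 (0.16) kept their sign.

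Integrin linkers and GTPases completed the set. The talin gene Tln1 read 5.67, 5.50, 5.49 and 5.30, and the vinculin gene Vcl read 1.04, 1.15, 0.85 and 0.82. Fermt3, the kindlin gene of blood cells, lay at 3.04 ± 0.08. Cdc42 read 7.09, 6.93, 6.73 and 6.77 on 3 probes, and its remaining probe, at -2.75 ± 0.48, was well above background on 3 arrays. Rhoa, the GTPase of contraction, lay at 3.58 ± 0.22. Rhog lay at 6.18 ± 0.27, and Vav1, the exchange factor with the purine box, at 2.05 ± 0.19 with replicate 1 lowest at 1.81. The ERM gene Ezr had 2 probes, and neither was well above background on all arrays: 1 printed 10 times on no array, and the other on replicates 2 and 3. Their mean read -4.84, -4.10, -4.09 and -4.91. Its relative Msn was detected but had the widest spread of all members. The third ERM gene, Rdx, from the further pathway list, was detected at 2.10 ± 0.17. Of 9 members with several probes, 2 (Tmsb10 and Cdc42) had some probes that met the call and some that did not, as had 25.5% of all genes with several probes.

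The 6 widest spreads among the detected members coincided with 1 place on the array surface. An area of the array, rows 166 to 216 and columns 73 to 88, read dim on replicates 3 and 4. The bounds are those of the 77 single-spot probes that lay more than 2 log2 units lower on replicate 4 than on the mean of the others. Detected single-spot probes there lay at a median of -0.84 on replicate 3 and -2.11 on replicate 4 against the mean of replicates 1 and 2, those in a margin of 16 rows and 8 columns around it at -0.18 and -0.59, and those elsewhere at 0.02 and -0.02. The medians of the area include the 77 probes that set its bounds, so its replicate 4 value was partly fixed by that choice. Of the 42 detected members 6 had their only spot in the area or its margin: Msn, Wipf1 and Abi1 in the area, and Rac1, Gsn and Cap1 in the margin.

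Msn, the gene for moesin, the ERM protein abundant in leukocytes, read 1.23 and 0.73 on replicates 1 and 2, -0.89 on replicate 3 and -2.32 on replicate 4. Wipf1 read 3.81, 4.08, 3.20 and 1.54. Abi1 read 2.07, 2.61, 2.00 and 0.78. In all 3 genes replicate 4 lay below every other array, and its difference from the mean of replicates 1 and 2 was -3.31 for Msn, -2.41 for Wipf1 and -1.56 for Abi1. Msn and Wipf1 were themselves among the probes whose fall on replicate 4 set the bounds of the area. Their low replicate 4 was therefore fixed by that choice. Abi1 was not among those probes. In the margin, the GTPase gene Rac1, the main driver of lamellipodia, read 4.24, 3.99, 3.47 and 2.31. The gelsolin gene Gsn read 5.70, 5.29, 5.31 and 4.26, and Cap1, the gene for an actin-recycling protein, read 3.11, 3.71, 3.14 and 2.24. Replicate 4 was again the lowest array for each gene.

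**Figure D3:**
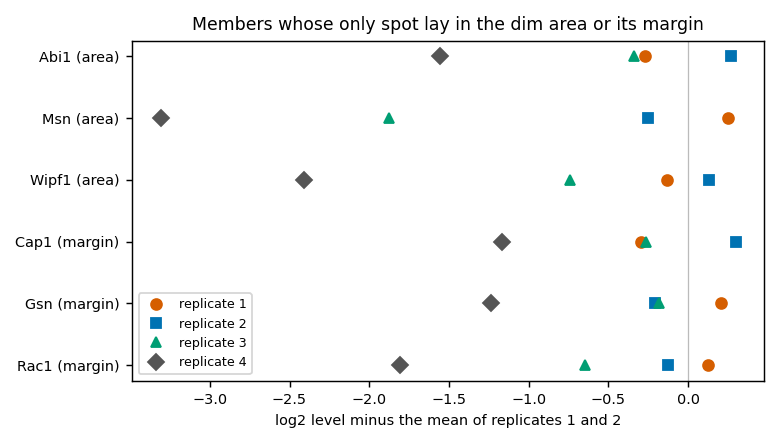
Level of the 6 genes whose only spot lay in the dim area or its margin, on each array, as log2 difference from the mean of replicates 1 and 2, with 1 marker per replicate. Replicate 4 is the lowest for every gene, from -1.17 for Cap1 to -3.31 for Msn. Msn and Wipf1 were among the probes whose fall on replicate 4 set the bounds of the area.

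Genes printed several times showed the area within a single array. Tln1 had 10 spots of 1 probe, 1 of them in the area. On replicates 1 and 2 that spot read 5.71 and 5.58, within the other 9 spots (5.55 to 5.83 and 5.39 to 5.62). On replicate 3 it read 4.89 where the others without an outlier mark lay between 5.43 and 5.52, and on replicate 4 it read 3.26 where the others lay between 5.24 and 5.38. Arpc5, also with 1 of 10 spots of a probe in the area, read 5.47 there on replicate 4 and between 6.86 and 7.03 elsewhere. The extraction software had marked both spots as outliers on replicates 3 and 4, so they did not enter the gene levels there. On replicate 3 it had also marked spots of the same probes elsewhere on the array. The spots of Msn, Wipf1, Abi1, Rac1, Gsn and Cap1 carried no such mark on any array and had no second spot to be set against.

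**Figure D4:**
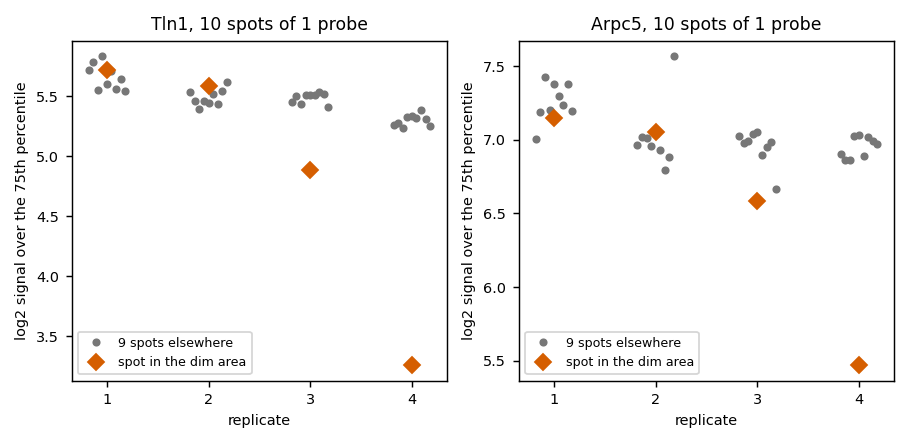
Single spots of the Tln1 probe and of 1 Arpc5 probe on each array, as log2 signal over the 75th percentile. The spot in the dim area (diamond) lies with the other 9 (grey) on replicates 1 and 2 and below all of them on replicates 3 and 4, and all spots are drawn, outlier marks included.

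Apart from these genes most members varied little. Over all 42 detected members the median SD was 0.19 log2 units, against 0.24 for all 8772 detected genes. An SD above 0.5 was found for 7 members (16.7%) and for 10.3% of all detected genes. These 7 were the 6 genes of the dim area and its margin, with SDs from 0.60 to 1.62, and Myo1f at 0.52. Among the 33 members with no spot there, Myo1f was the 1 gene above 0.5, where 8.8% of the comparable 8088 genes were. Lcp1 and Coro1a lay just under 0.5, at 0.498 and 0.495. They lay just over it, at 0.510 and 0.506, when spots of the area and its margin were left out. That count therefore depends on the cutoff. The median SD of the 33 members was 0.19 against 0.23. For 8 probes of members printed 10 times, the SD between spots of 1 array was 0.07 to 0.15, and the SD between arrays was 0.07 to 0.50. The SD between arrays was taken over means of spots, and the SD between spots over single spots. Their ratios are therefore not like for like. The SD between arrays was the larger of both for 6 of the 8 probes. It was 3.8 times the SD between spots for Lcp1 and 4.02 times for the 10-spot Vasp probe, and 0.44 times for Capg.

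Replicate 1 was the array farthest from the mean for 18 of 42 members (42.9%), and for 54.7% of all detected genes. Replicate 4 was farthest for 13 members (31.0%, against 18.8% of all), and these include all 6 genes of the dim area and its margin. Replicate 2 was farthest for 10 members (23.8%, against 16.6% of all) and replicate 3 for 1. In 3 of the 42 (Tmsb4x, Cfl1 and Lcp1) 1 array stood apart by Dixon's ratio, as in 8.41% of all detected genes. Of the 33 members away from it, replicate 1 lay above all other arrays for 16 (48.5%, against 41.6% of 8088 genes) and below all of them for 6 (18.2%, against 34.1%). It lay more than 0.5 log2 units above the mean of the others for 4 of 33, namely Lcp1 by 0.99, Myo1f by 0.97, Coro1a by 0.90 and Diaph1 by 0.71, and 17.1% of the comparable genes did so. No member lay that far below, against 14.1% of genes, and the lowest were Rhoa at -0.42, Wasl and Vav1 at -0.33 each and Arpc1a at -0.30. The median difference of replicate 1 was 0.10 for the members and 0.05 for all these genes. That order depended on the scaling. Under quantile scaling the median of these members was -0.05, against 0.02 for all detected genes, dim area included. Under normexp correction with quantile scaling it was -0.03 against 0.02. These shares were not tested, since the members are not independent.

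**Figure D5:**
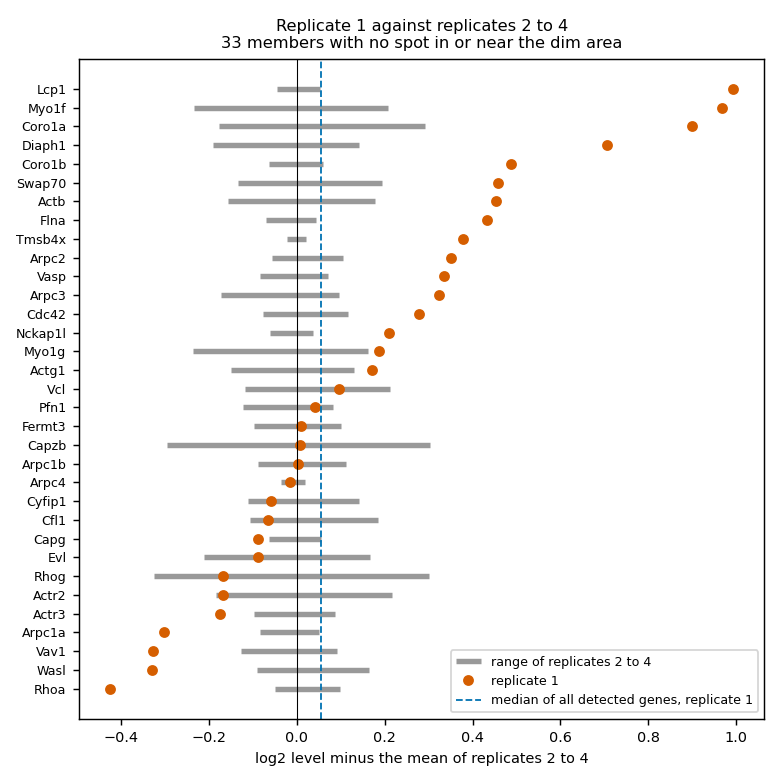
Replicate 1 (points) against replicates 2 to 4 (grey bars, their range) for the 33 members with no spot in the dim area or its margin, as log2 level minus the mean of replicates 2 to 4. Points right of their bar are the 16 genes with replicate 1 above all other arrays, led by Lcp1, Myo1f, Coro1a and Diaph1, and the dashed line is the median of all 8088 comparable genes (0.05).

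Signs of small differences depended on the scaling. Under the 4 scalings used, 22 of the 33 members kept the sign of the replicate 1 difference, 11 above and 11 below, and 11 did not. Kept above were Actb, Arpc3, Nckap1l, Diaph1, Vasp, Coro1a, Coro1b, Lcp1, Swap70, Myo1f and Cdc42. The lowest difference over the scalings was 0.78 for Lcp1, 0.81 for Myo1f, 0.56 for Coro1a, 0.59 for Diaph1 and 0.22 for Actb. Tmsb4x, which stood apart in the main scaling, lay between -0.002 and 0.38. Other features of replicate 1 moved with these values. It had the lowest signal over negative controls, and the summed signal of the 12 macrophage markers was 1965 times the 75th percentile there against 1481 to 1625 on the other arrays. Laptm5 gave most of that difference, with 694 against 413 to 474, and without it the sum was 1270.2 against 1067 to 1151. Replicate 1 was the highest array for 7 of the 12 markers and the lowest for 2, among them Spi1. The summed signal of the 18 markers of other cell types was 3.70 there against 1.93 to 2.64. Pecam1 alone gave 2.28 of it against 0.71 to 1.09, and without Pecam1 the sum was 1.42 against 1.22 to 1.68, so replicate 1 was then not the highest. Both genes were left out after their values were seen. Other markers of that list, among them Epcam, Cdh1, Krt18, Scgb1a1, Col3a1, Cd3e, Elane, S100a8, S100a9 and Hbb, were well above background on no array. The part of these features in the differences of replicate 1 was not tested. In bulk RNA, fewer cells of a kind and less RNA per cell cannot be told apart.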

How the data were processed

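Total RNA of 4 samples was labelled with Cy3 (100 ng each) and hybridised to Agilent arrays, per the labels' protocols. The submitters' processing notes name Agilent Feature Extraction 11.0.1.1. Each deposited file lists the linear intensity of every spot after the software's background handling, per the file headers, with no scaling between arrays. The 4 arrays shared 1 slide and 1 scan, per the file headers, so no batch could be tested.

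Of 62976 spots, 4259 control spots and 440 to 1206 spots marked as outliers per array were left out, and no spot was saturated. Spots of a probe were averaged on the log2 scale (45280 probes kept), and each array's 75th percentile was subtracted. Accessions were matched to RefSeq symbols of GRCr8, used for names and promoter sequences (17614 of 40539 accessions matched). A probe was detected where most of its spots were well above background on all 4 arrays, and probes that met this were averaged per gene (all probes where none did). Negative controls were tested against with limma 3.58.1 in R 4.3.3, one-sided, Benjamini-Hochberg adjusted over all probes. On simulated data with 45280 probes that test recovered 44% of probes lifted by 0.5 log2 units, 64% at 1, 98% at 2 and 100% at 4, and called 1.96% of probes on the threshold. Other computation used Python 3.11.15, pandas 2.3.3 and matplotlib 3.10.9. Values on every array were given by rule: the first 2 detected members of each role, members not detected or with split probes, with an SD above 0.5, with 1 array apart by Dixon's ratio, or with a spot in the dim area. The members, lists and tests were chosen with earlier results of these data known, and the margin of the dim area was set after seeing the data. Some genes of the comparison lists are counted but not reported by name here.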

Additional observations from a re-analysis of the deposited data

Results flagged for a closer look

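In 4 genes 1 array stood far from the other arrays, with the gap to its nearest neighbour, divided by the whole range, above Dixon's 95% critical value. For Lcp1 the array was replicate 1, above the others, with a ratio of 0.907. For Tmsb4x it was also replicate 1, above the others, with a ratio of 0.889. For Cfl1 it was replicate 2, above the others, with a ratio of 0.862. For Wasf2, which was not detected, it was replicate 4, below the others, with a ratio of 0.883. Chance gives about 1 such gene in 20. Among the detected members 3 of 42 (7.14%) met the ratio, and 8.41% of all detected genes did.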

How the results depend on the processing

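The counts and the median SD stayed within 1.5 times their main value under every alternative run. Members detected stayed at 42 of 44 in all but 3 alternatives: 44 by limma detection, 41 with the first probe of each gene, where Tmsb10 is lost, and 36 of 38 without the dim area and its margin, where 6 members have no spot left. Without the area 53.1% of all named genes were detected. Leaving out 1 replicate gave 42 each time, 61 to 64 further pathway genes, and 43 or 44 members above controls by limma. The median SD of members ran from 0.142 without replicate 1 to 0.220 without replicate 3. Levels of all 44 members moved by over 1 SD with the 75th percentile taken over detected probes, which shifts the median of all genes by -3.08, and levels of 36 members under normexp on median signals (median shift -0.30). With the first probe of each gene 7 levels moved, among them Vasp from 5.06 to 7.57, Diaph1 from 2.17 to -0.76 and Arpc5 from 5.84 to 7.05. Settings that let in the dim Cdc42 probe (the positive-and-significant flag, limma detection, 3 arrays, no filter) took Cdc42 from 6.88 to 4.47, and without replicate 3 it was 4.55. Tmsb10 went from 0.83 to -1.63 under the first 2 of these, to -2.86 with no filter and to -5.32 with the first probe. Normexp used median signals in place of mean signals. No paired analysis was possible because there is 1 group. Signals close to background limit the calls for Wasf2 and Ezr.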
